A study of Mus musculus with 43 samples.

Results

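Microglia sorted from the visual cortex of CK-p25 mice after 40 Hz light flicker (gamma entrainment using sensory stimuli, GENUS) were compared with microglia from CK-p25 mice that received no stimulation. The comparison used 8 of the 43 libraries of the series, 4 in each group, chosen by their titles. CK-p25 mice carry a tTA driver under the Camk2a promoter together with a tetO transgene for CDK5R1-derived p25 and GFP, and p25 had been induced for 6 weeks in both groups. The GENUS group had 43 days of GENUS, and the untreated group had none. A further 4 libraries, labelled CK and described as wild type controls without p25, served as a baseline. The labels give neither the age of the CK-p25 mice, nor the daily duration of the flicker, nor the number of animals behind a library. The Camk2a promoter is active in excitatory forebrain neurons, so the transgene is driven in those neurons and not in microglia. Cells were sorted by CD11b and CD45 staining, and full-length cDNA was made from total RNA with a kit for very low input.

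Microglia are the resident macrophages of the brain. In the healthy cortex they carry a homeostatic programme of surveillance receptors such as P2ry12 and Cx3cr1, and near degenerating neurons they lower it and turn on a disease-associated programme of lipid, lysosomal and phagocytic genes, often with an interferon response and antigen presentation genes. Gamma rhythms arise when fast-spiking inhibitory neurons pace excitatory ones, and light that flickers in the gamma band drives such a rhythm in the visual cortex. The question here was whether microglia of a degenerating cortex carry a different set of transcripts when the mice have been stimulated.

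Levels are given as FPKM (fragments per kilobase of transcript, scaled to the mapped fragments of the library). The sorted cells carried microglial markers in each group. The summed level of 12 microglia markers was 24996 to 26615 FPKM in GENUS libraries, 23391 to 27536 FPKM in untreated and 25427 to 30145 FPKM in CK libraries, and that of 12 neuron markers was at most 9.40 FPKM in any CK-p25 library. In a bulk library, fewer cells of a type and less RNA per cell cannot be told apart. Astrocyte markers summed to 93.8 to 165 FPKM after GENUS and 90.3 to 124 FPKM without it, oligodendrocyte markers to 178 to 279.5 against 136 to 239 FPKM, oligodendrocyte precursor markers to 1.60 to 8.17 against 1.97 to 7.34 FPKM, endothelial and mural markers to 12.1 to 33.2 against 10.3 to 28.2 FPKM, and perivascular macrophage markers to 242 to 336 against 131 to 388 FPKM. An estimate above 0 was found for 9 of 10 tested astrocyte markers (median 0.27), 7 of 9 oligodendrocyte markers (median 0.34) and 7 of 9 perivascular macrophage markers (median 0.23), none with an unadjusted p under 0.05, and their part in the results was not tested. In CK libraries neuron markers summed to 6.36 to 30.5 FPKM and endothelial and mural markers to 17.5 to 53.7 FPKM. Oligodendrocyte markers summed to 152, 186, 764 and 979 FPKM in CK replicates 1 to 4. The part of these markers in the comparisons with CK microglia was not tested. Cdk5r1, the gene p25 derives from, ranged from 0.581 to 0.810 FPKM in GENUS libraries, 0.393 to 1.29 FPKM in untreated and 1.64 to 1.97 FPKM in CK libraries, and since the transgene is driven in neurons this does not check the labels.

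Replicates 3 and 4 of both CK-p25 groups stood apart from replicates 1 and 2 in lymphocyte transcripts. The sum of 14 lymphocyte markers was 20.5, 18.8, 180.5 and 160.2 FPKM in GENUS replicates 1 to 4, and 11.4, 17.98, 162 and 182 FPKM in untreated replicates 1 to 4. Nkg7, a granule protein of cytotoxic lymphocytes, was at 89.6 and 67.9 FPKM in GENUS replicates 3 and 4 and listed at 0 and 0.0717 in replicates 1 and 2, and at 65.0 and 75.7 FPKM in untreated replicates 3 and 4 beside 1.48 and 0. The second principal component (12.9% of the variance) set the same libraries apart. Both CK-p25 groups hold 2 such libraries. In CK replicates 1 to 4 the lymphocyte sum was 30.2, 35.9, 34.1 and 51.1 FPKM. Nkg7 was listed at 0.213, 0, 9.02 and 7.07 FPKM there. On the second component CK replicates 3 and 4 lay at -1.16 and -3.98, and CK replicates 1 and 2 at 6.78 and 9.63.

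GENUS replicate 4 differed further. On the first principal component (51.5%), which separates CK-p25 from CK microglia, it lay at 8.38, where the other GENUS libraries lay at 28.3 to 31.9, untreated libraries at 18.8 to 27.2 and CK libraries at -48.0 to -45.2. The sum of monocyte and neutrophil markers was 1213 FPKM in it and 26.8, 104 and 127 FPKM in GENUS replicates 1 to 3, against 168 to 499.7 FPKM in untreated libraries. S100a8 and S100a9, calcium-binding proteins of neutrophils, were at 625 and 391 FPKM in it and at most 42.1 FPKM in the other GENUS libraries, against 52.5 to 168 FPKM in untreated ones. Hspa1a, a heat shock protein of the Hsp70 family, was at 403 FPKM in it and 44.7 to 86.1 FPKM in the other GENUS libraries, against 45.2 to 128 FPKM in untreated ones.

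**Figure D1:**
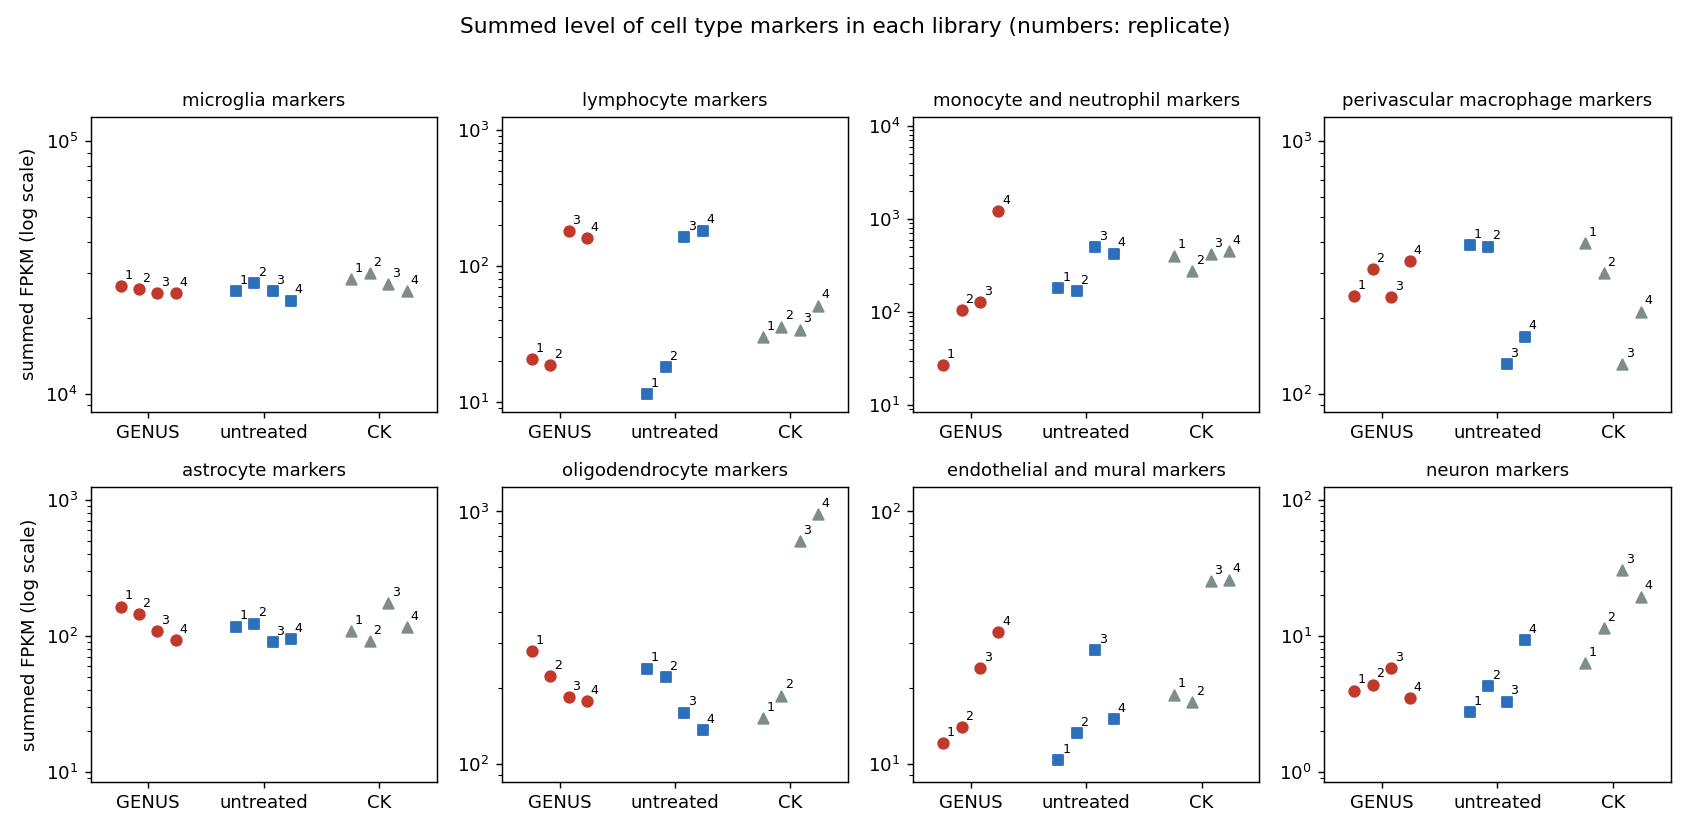
Summed FPKM (y axis, log scale) of markers of 8 cell types in each microglia library, GENUS (red circles), untreated CK-p25 (blue squares) and CK (grey triangles), numbered by replicate. Lymphocyte markers separate replicates 3 and 4 (160.2 to 182 FPKM) from replicates 1 and 2 (11.4 to 20.5 FPKM) in both CK-p25 groups, and monocyte and neutrophil markers reach 1213 FPKM in GENUS replicate 4.

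No gene passed the test between GENUS-stimulated and untreated CK-p25 microglia. Of 10337 genes with a mean of at least 1 FPKM, 0 reached an adjusted p of 0.05 in limma on log2(FPKM + 1), which is 0%, and the lowest adjusted p was 0.526. An unadjusted p under 0.05 was found for 761 genes (7.36%), of which 371 (3.59%) were higher and 390 (3.77%) lower after GENUS. The groups did not overlap in 466 genes (4.51%): the 4 GENUS values lay wholly above the 4 untreated values in 250 of them (2.42% of all genes) and wholly below in 216 (2.09%). The median log2 change over all genes was -0.003, with a median standard error of 0.17. The same model called 1696 genes (16.4%) higher and 1066 (10.3%) lower in untreated CK-p25 than in CK microglia, and 1824 (17.6%) higher and 1323 (12.8%) lower in GENUS-stimulated CK-p25 than in CK microglia. These last 2 comparisons share the CK libraries.

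The genes described first are the 10 with the smallest unadjusted p in each direction. They are given as values, since each had an adjusted p of 0.526, and their separation follows from how they were chosen. Among the 10 with an estimate above 0, several act in translation or in the endosome and lysosome. Eif4a1, the RNA helicase of the cap-binding complex that starts translation, stood at 99.1, 121, 124 and 116 FPKM in GENUS libraries, against 84.8, 89.6, 87.7 and 91.9 FPKM in untreated libraries. The lowest GENUS value lay above the highest untreated one (log2 change 0.37, SE 0.08). Mrps12 and Mrps18a, proteins of the mitochondrial ribosome, averaged 43.3 ± 3.40 FPKM (SD, n = 4) in GENUS libraries against 30.1 ± 5.76 FPKM in untreated ones, and 61.4 ± 2.10 FPKM against 48.1 ± 4.42 FPKM.

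Psap encodes prosaposin, the precursor of the saposins that help lysosomal enzymes degrade sphingolipids, and was by far the most abundant of these 20 genes. It stood at 1902, 2133, 1985 and 2219 FPKM in GENUS libraries, against 1533, 1716, 1642 and 1617 FPKM in untreated libraries. All GENUS values were above all untreated values, by a log2 change of 0.34 (SE 0.08). Against CK microglia, where Psap averaged 1219 ± 90.0 FPKM, the gene was called higher in GENUS-stimulated (log2 change 0.76) and in untreated CK-p25 microglia (0.42). Rab5c, a small GTPase of early endosomes, had 11.03, 13.3, 13.2 and 12.7 FPKM after GENUS and 7.53, 8.85, 9.28 and 7.79 FPKM without it. Vapb, which tethers the endoplasmic reticulum to other membranes, and Cd151, a tetraspanin that associates with integrins, were low genes, at 3.32 ± 0.534 against 1.74 ± 0.303 FPKM and at 7.86 ± 2.25 against 4.2 ± 0.795 FPKM.

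The remaining 3 act in the nucleus. Max, the DNA-binding partner of Myc, had 19.7, 16.3, 18.8 and 22.2 FPKM after GENUS and 11.003, 14.8, 10.4 and 10.1 FPKM without it (log2 change 0.69, SE 0.15). The GENUS and untreated groups stood apart by 1 narrow gap, between GENUS replicate 2 and untreated replicate 2. Raly, an RNA-binding protein of the hnRNP family, averaged 12.2 ± 1.58 FPKM in GENUS libraries, 8.09 ± 0.891 FPKM in untreated ones and 11.8 ± 1.22 FPKM in CK libraries. Untreated CK-p25 microglia were called lower than CK microglia for Raly (log2 change -0.49, adjusted p = 0.0092), and the GENUS estimate against CK was 0.04 (adjusted p = 0.83). Both of those comparisons use the CK libraries, and the gene was chosen for the contrast with untreated microglia, whose low values enter it too. Sun2, a nuclear envelope protein that links the lamina to the cytoskeleton, stood at 4.59 ± 1.22 against 2.20 ± 0.451 FPKM.

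The 10 genes with an estimate below 0 include regulators of the actin and microtubule cytoskeleton. Rock2, a kinase that drives actomyosin contraction, had 10.8, 8.80, 8.13 and 8.003 FPKM after GENUS and 12.6, 13.1, 13.5 and 13.8 FPKM without it. The highest GENUS library was still below the lowest untreated one (log2 change -0.53, SE 0.12). Clasp2, which stabilises the growing ends of microtubules, averaged 6.29 ± 0.857 against 10.2 ± 1.66 FPKM, and Spata13, an exchange factor for Rac and Cdc42, 34.7 ± 2.60 against 46.2 ± 3.62 FPKM. Mef2a, a transcription factor of the MEF2 family, had 60.3, 63.4, 56.8 and 60.4 FPKM after GENUS and 84.0, 86.4, 67.5 and 78.4 FPKM without it. Mef2a was called lower than in CK microglia (130.2 ± 10.6 FPKM) in both GENUS-stimulated (log2 change -1.10) and untreated CK-p25 microglia (-0.72).

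The others belong to protein turnover, glycosylation and membrane traffic. Fbxw11, the substrate receptor of a ubiquitin ligase that targets I kappa B and beta-catenin, had 38.5, 35.2, 36.7 and 35.5 FPKM after GENUS and 52.5, 59.1, 43.6 and 47.02 FPKM without it (log2 change -0.45, SE 0.10). Ndfip2, an adaptor of Nedd4-type ubiquitin ligases, averaged 58.7 ± 3.22 against 72.05 ± 1.21 FPKM. The Golgi proteins Slc35a3, which imports UDP-N-acetylglucosamine, and B4galt1, a galactosyltransferase, stood at 8.77 ± 1.16 against 12.8 ± 0.668 FPKM and at 27.2 ± 1.06 against 36.8 ± 4.70 FPKM. Atp8a2, a phospholipid flippase, averaged 26.1 ± 4.09 against 36.6 ± 2.34 FPKM, and Dennd4a, a DENN-domain activator of Rab GTPases, 11 ± 2.04 against 16.2 ± 0.797 FPKM.

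**Figure D2:**
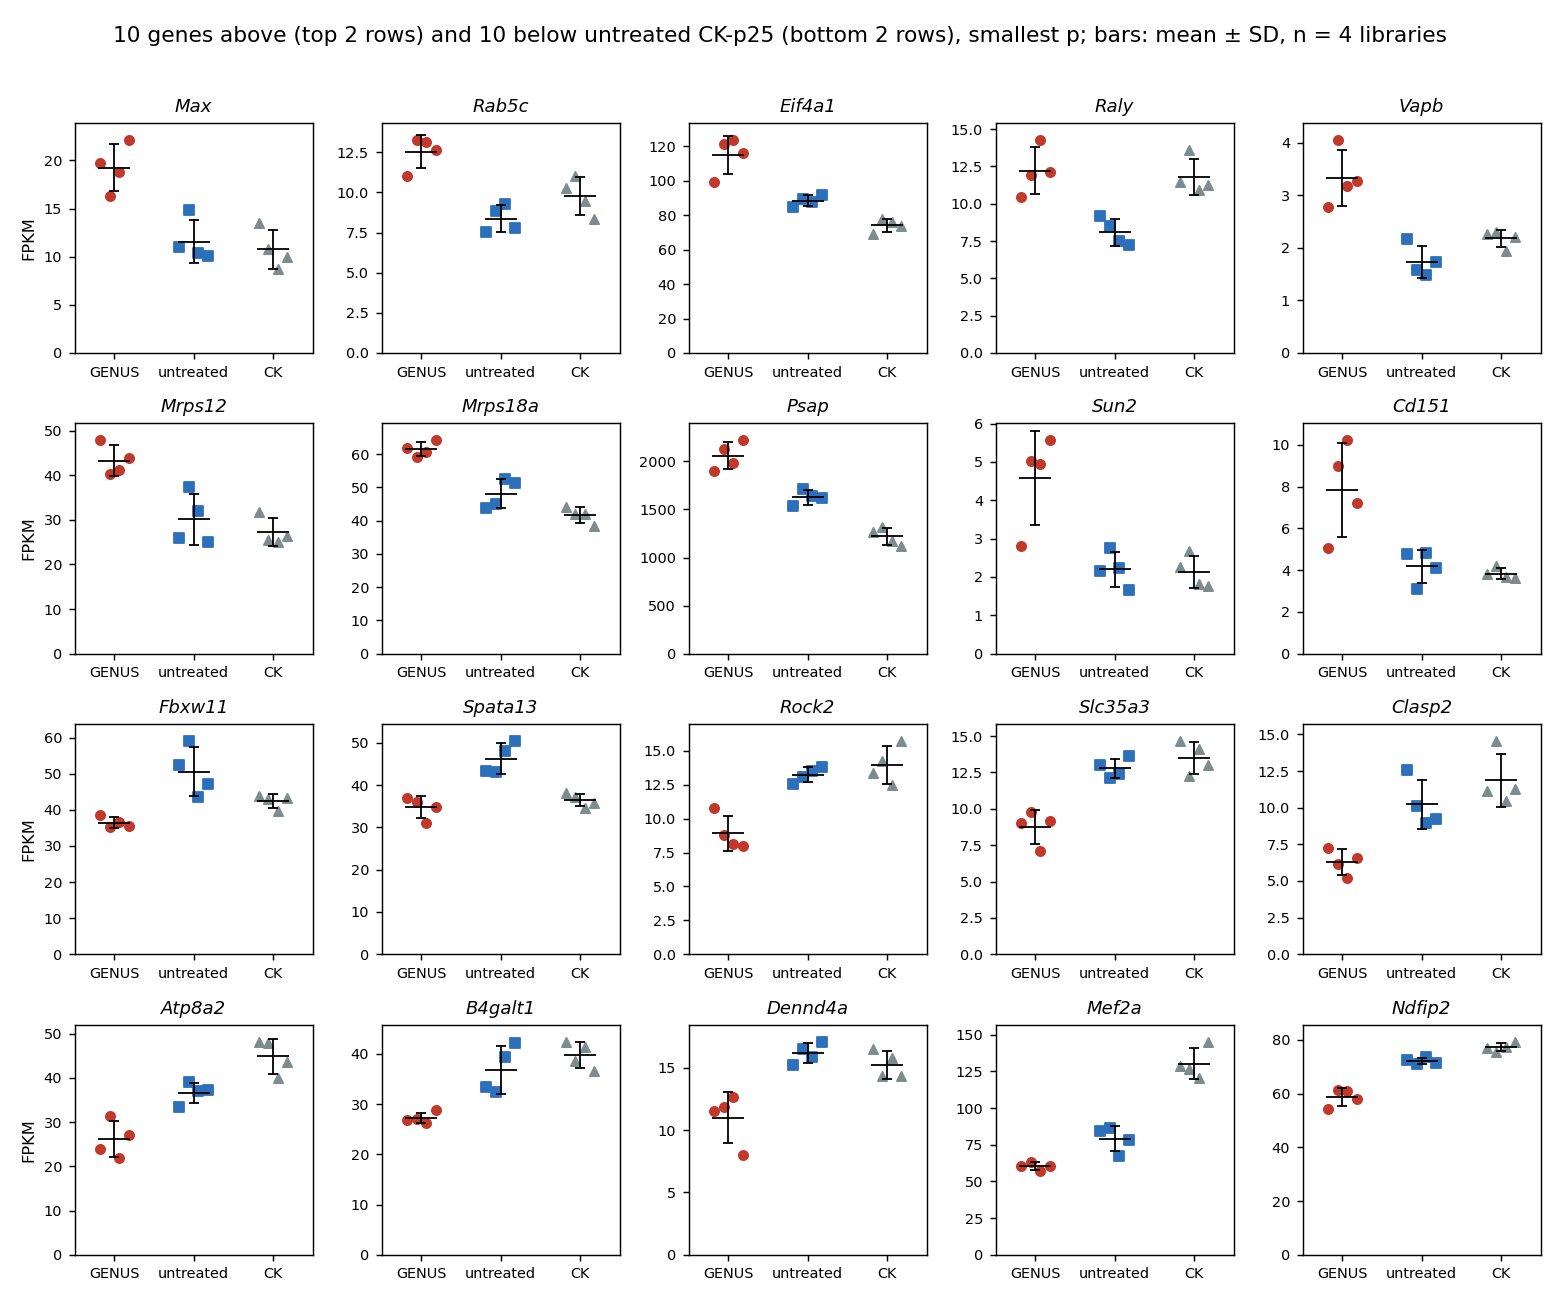
FPKM (y axis, linear from 0) of the 20 genes with the smallest unadjusted p in each of 4 GENUS (red circles), 4 untreated CK-p25 (blue squares) and 4 CK (grey triangles) microglia libraries, with mean and SD. In each panel the red points lie wholly above (top rows) or wholly below (bottom rows) the blue ones, for example Rock2 at 8.93 ± 1.29 FPKM in GENUS libraries and 13.2 ± 0.542 FPKM in untreated ones.

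Most gene lists were centred near 0, and 6 of the 24 had a median above 0.1. The median log2 change was 0.20 over 71 ribosomal protein genes, 0.14 over 60 oxidative phosphorylation genes, 0.12 over 40 proteasome and ubiquitin genes and 0.17 over 30 unfolded protein and heat shock genes, beside -0.003 over all genes. It was also 0.12 over 31 glycolysis and hypoxia genes and over 30 immediate early genes. At the other end stood phagocytosis and scavenger receptors (-0.09 over 28), Toll-like receptor genes (-0.07 over 22), autophagy genes (-0.06 over 36) and homeostatic microglia genes (-0.05 over 29). No member of any of the 24 lists passed the test. When 1 library was left out, the sign of the median turned in 16 lists and was kept in 8: ribosomal protein, oxidative phosphorylation, proteasome, glycolysis, immediate early, phagocytosis, Toll-like receptor and autophagy genes. The Toll-like receptor median was nevertheless 0.04 with replicates 1 and 2 alone and -0.17 with replicates 3 and 4 alone.

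**Figure D3:**
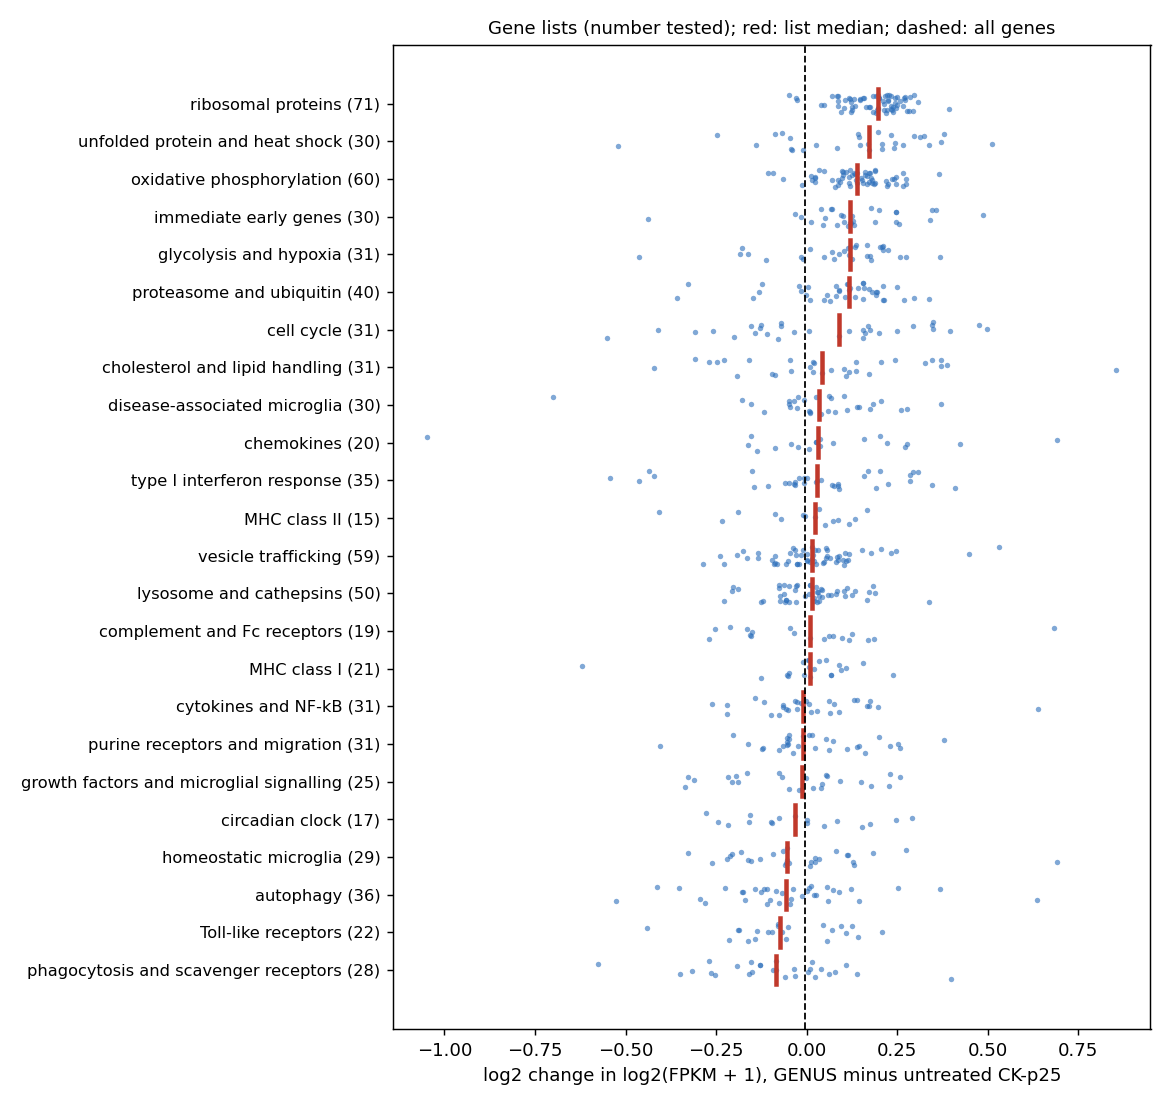
Log2 change (x axis, GENUS minus untreated CK-p25, on log2(FPKM + 1)) of each tested member (blue points) of 24 gene lists (y axis, number of members tested in brackets), with the list median (red) and the median of all genes (dashed). Ribosomal protein genes lie mostly to the right of the dashed line, with a median of 0.20, and phagocytosis and scavenger receptors lie furthest to the left, with a median of -0.09.

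Ribosomal protein genes had the highest share of estimates on one side. Of 71 tested, 68 had an estimate above 0, where 49.3% of all genes did, and 32 had an unadjusted p under 0.05 in that direction, which is 45.1%, where 3.59% of all genes did. In 22 of them the GENUS values lay wholly above the untreated values, where 2.42% of all genes did, and in 0 wholly below, where 2.09% of all genes did. Rpl13, of the large subunit, had 311, 286, 276 and 259.6 FPKM after GENUS and 231, 249, 238 and 233 FPKM without it. All GENUS values exceeded all untreated ones, by a log2 change of 0.25 (SE 0.07, unadjusted p = 0.0046, adjusted p = 0.537). Rps16, of the small subunit, stood at 96.5, 99.6, 103 and 97.004 FPKM against 75.8, 88.0, 83.1 and 77.9 FPKM (log2 change 0.28, SE 0.09), and the most abundant member, Rpl32, averaged 725 ± 54.4 against 623 ± 30.1 FPKM. The list was already called higher than in CK microglia in both CK-p25 groups, in 70 of 71 members after GENUS and in 69 without it. Of all genes, 17.6% and 16.4% were called higher in these comparisons. In CK libraries Rpl13 averaged 109.6 ± 2.44 FPKM, so the GENUS difference is small beside that with CK (log2 change 1.36 in GENUS-stimulated and 1.11 in untreated CK-p25 microglia). Ribosomal protein genes have processed pseudogenes, whose reads the authors' counting could have split.

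Ribosomal protein messages are known to start with a short run of pyrimidines through which their translation is controlled, and the starts of 4 of the ribosomal protein genes with the smallest unadjusted p show how far the annotated start carries that run. They are given from RefSeq (GRCm38.p6; the deposited values were made on mm9), 5′ to 3′ on the strand of the gene, with 20 bases before the annotated start and 10 from it on. Capitals mark a C at the start followed by 4 bases that are each C or T.
Rpl13 (chr8:123102330-123102359, plus strand): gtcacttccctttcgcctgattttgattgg
Rps16 (chr7:28350669-28350698, plus strand): taaagcccgcttctgtcgtgacgtagcact
Rplp0 (chr5:115559447-115559476, plus strand): acgtcgtcttcgggtttcgaggaccgcctg
Rps18 (chr17:33955656-33955685, minus strand): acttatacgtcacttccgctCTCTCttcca
Only Rps18 of these 4 carried the run at the annotated start. Looked for at that position and on that strand alone, it stood in 12 of the 54 tested ribosomal protein genes with a promoter in the RefSeq table (22.2%), in 2 of 48 oxidative phosphorylation genes (4.17%) and in 673 of all 27025 promoters (2.49%). A gene without it at the annotated start may start elsewhere, and the match is a description of the sequence only.

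Respiratory chain genes stood on the same side. Of 60 oxidative phosphorylation genes, 56 had an estimate above 0, and 13 had an unadjusted p under 0.05 in that direction (21.7%), where 3.59% of all genes did. Ndufb10, a subunit of complex I, had 131, 139.9, 139.5 and 133 FPKM after GENUS and 122, 115, 111 and 102 FPKM without it (log2 change 0.27, SE 0.08). The lowest GENUS value was above the highest untreated one. Ndufb2, also of complex I, averaged 135 ± 7.14 against 105 ± 14.1 FPKM, Cox7a2, of complex IV, 145 ± 8.78 against 121 ± 8.36 FPKM, and Uqcrc2, of complex III, 57.04 ± 3.65 against 47.9 ± 2.72 FPKM. Mitochondrial ribosomal proteins were a list added because Mrps12 and Mrps18a were among the genes with the smallest p. Of 77 tested, 66 had an estimate above 0, where 49.3% of all genes did, and the median was 0.14.

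In the proteasome and ubiquitin list 32 of 40 genes had an estimate above 0, and 7 had an unadjusted p under 0.05 in that direction (17.5%, where 3.59% of all genes did) and 1 in the other. Psmc3, an ATPase of the regulatory particle, had 115, 133, 108 and 116 FPKM after GENUS and 104, 96.7, 100.5 and 94.9 FPKM without it. These groups do not overlap (log2 change 0.25, SE 0.09). Psma4, of the catalytic core, overlapped between groups, at 77.5 ± 11.1 against 60.9 ± 5.21 FPKM. Nploc4, a cofactor of the segregase p97, was the member on the other side, at 14.9 ± 2.92 against 19.2 ± 2.24 FPKM.

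The same direction was seen for short transcripts in general. Genes were divided into 5 bins by the length of their longest protein-coding transcript in GENCODE M21, which 96.4% of tested genes had. The median log2 change was 0.12 in the bin of 300 to 1710 bases, then 0.04, -0.01 and -0.06, and -0.12 in the bin of 4846 bases and more. An estimate above 0 was found for 76.6% of the shortest genes and for 25.9% of the longest. The lists above are short: 61 of 71 ribosomal protein genes, 48 of 60 oxidative phosphorylation genes and 20 of 40 proteasome genes were in the shortest bin. So were 49 of the 77 mitochondrial ribosomal protein genes, whose median of 0.14 stood beside 0.12 for that bin. Of the 10 named genes with an estimate above 0, 7 were in the 2 shortest bins, and of the 10 below 0, 9 were in the 2 longest.

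The difference between the shortest and the longest bin could be read in every library. Relative to the mean of untreated libraries it was 0.15, 0.20, 0.36 and 0.25 on the log2 scale in GENUS libraries, -0.04, 0.06, 0.02 and -0.04 in untreated libraries, and between -0.27 and -0.06 in CK libraries. All GENUS libraries were above all untreated ones, and all CK libraries below them. With each library centred on its median within each length bin, the median was 0.11 over the ribosomal list and 0.06 over both the oxidative phosphorylation and the proteasome lists. It was 0.12 over glycolysis and hypoxia, 0.14 over unfolded protein and heat shock and 0.11 over immediate early genes, close to the uncentred values. The count of genes at an unadjusted p under 0.05 was 452 after this centring, and 0 genes were called. GC content showed a smaller spread, from a median of -0.04 in the lowest of 5 bins to 0.03 in the highest. The part of transcript length, and of anything in the RNA or the library that follows it, in the list values was not tested further.

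**Figure D4:**
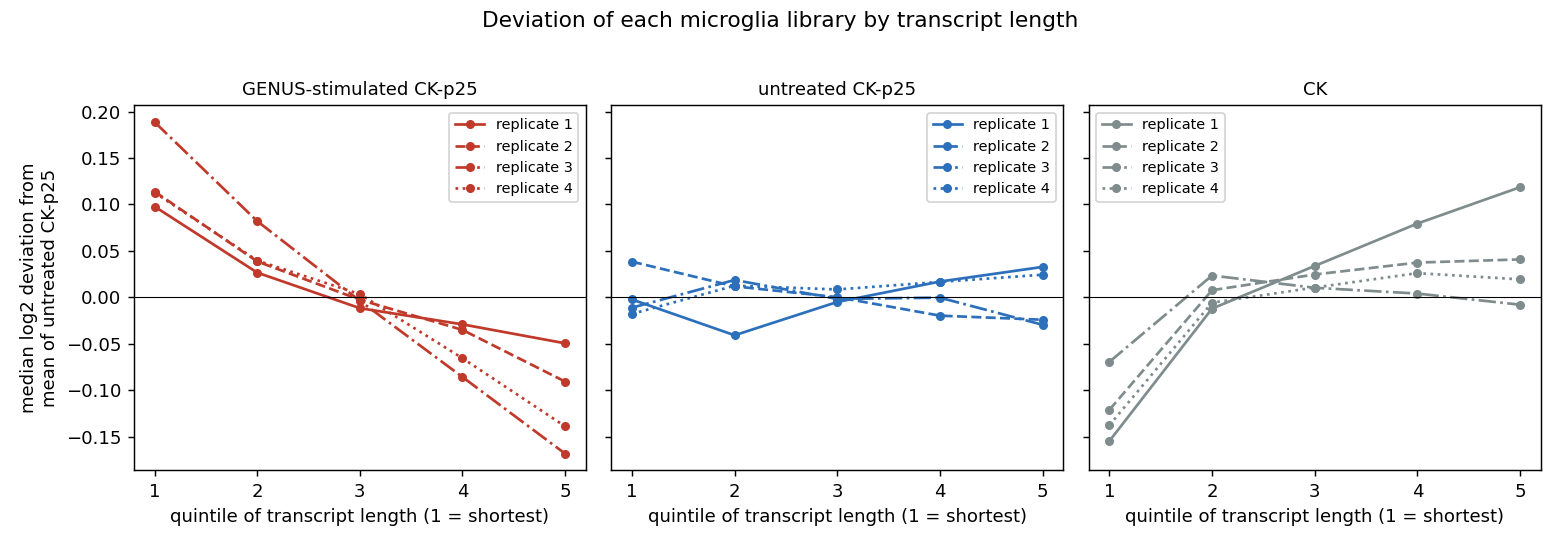
Median log2 deviation of each library from the mean of the untreated CK-p25 libraries (y axis) in 5 bins of transcript length (x axis, 1 = shortest), in GENUS (left, red), untreated (middle, blue) and CK microglia (right, grey), 1 line per replicate. All red lines slope down, with a difference between shortest and longest genes of 0.15 to 0.36, the blue lines stay between -0.04 and 0.04 and each CK line is lowest in the shortest bin.

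All 30 disease-associated microglia genes had been called higher than in CK microglia in both GENUS-stimulated and untreated CK-p25 microglia. Of all genes, 17.6% and 16.4% were called higher in these 2 comparisons. The median log2 change of the 30 genes against CK was 2.93 after GENUS and 2.82 without it. Between GENUS and untreated libraries their median log2 change was 0.03, 19 of 30 estimates were above 0, and 0 had an unadjusted p under 0.05. Trem2, the lipid-sensing receptor needed for this programme, stood at 3041, 2694, 2529 and 2158 FPKM after GENUS and 2636, 2588, 2273 and 1968 FPKM without it (log2 change 0.14, SE 0.12). Its groups overlap, as do those of Tyrobp, its signalling partner, at 7911 ± 1067 against 7486 ± 967 FPKM.

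Some of these genes differed more between replicates than between groups. Gpnmb, a transmembrane glycoprotein of lipid-laden macrophages, stood at 58.8, 58.0, 27.2 and 4.12 FPKM after GENUS and 199.6, 25.9, 32.5 and 18.6 FPKM without it (log2 change -0.70, SE 0.75). Lpl, lipoprotein lipase, stood at 295, 284, 227 and 108 FPKM against 450.0, 252, 102 and 62.7 FPKM. In both genes untreated replicate 1 was the highest library of all. GENUS replicate 4 was the lowest for Gpnmb, and untreated replicate 4 for Lpl. The median of the disease-associated list was 0.22 without GENUS replicate 4, -0.03 without GENUS replicate 1 and -0.07 without untreated replicate 4, so its sign depends on single libraries.

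Apoe, the lipid carrier that disease-associated microglia secrete, and Ctsd, the lysosomal protease cathepsin D, could be compared only in part. Apoe was listed at 0 in GENUS replicates 1 and 2 and in untreated replicate 1, and these entries were treated as missing. The remaining libraries had 33132 and 9572 FPKM after GENUS and 30339, 20296 and 8977 FPKM without it. These groups overlap, with a log2 change of 0.01 and an SE of 0.56 over 2 and 3 libraries. Ctsd was listed at 0 in all 4 GENUS libraries and in 3 untreated ones, with 25072 FPKM in untreated replicate 4, so no change was estimated.

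Of 29 homeostatic genes, 13 had an estimate above 0 and 16 below, and the median was -0.05. Tgfbr1, a receptor for the TGF-beta that maintains microglial identity, had 224, 214, 185 and 229 FPKM after GENUS and 299, 257, 243 and 270.0 FPKM without it (log2 change -0.33, SE 0.12, adjusted p = 0.582). All GENUS values were below all untreated ones, and CK microglia averaged 386 ± 67.5 FPKM. Csf1r, the receptor on whose ligands microglia depend for survival, averaged 2262 ± 272 against 2600.4 ± 174 FPKM, and Sall1, a transcription factor of microglial identity, 32.8 ± 3.60 against 38.6 ± 6.27 FPKM. Both overlap between groups. P2ry12, the ADP receptor of surveying processes, averaged 943 ± 266 against 953 ± 131 FPKM, and Tmem119 1015 ± 335 against 959.7 ± 289 FPKM.

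Interferon-stimulated genes were centred near 0 between the groups. Over 35 genes the median log2 change was 0.03, with 20 estimates above 0. The median deviation from the untreated mean was 0.04, 0.08, 0.14 and -0.14 in GENUS replicates 1 to 4 and -0.51, -0.19, 0.32 and 0.43 in untreated replicates 1 to 4. Isg15, a ubiquitin-like protein induced by interferon, shows this: it had 101, 102, 105 and 113 FPKM after GENUS and 43.7, 69.3, 114 and 112 FPKM without it. Its GENUS libraries lay within a narrow range, and the untreated ones fell into a low and a high pair. With replicates 1 and 2 alone the list's median was 0.40, and with replicates 3 and 4 alone it was -0.32. The lymphocyte transcripts given above were high in replicates 3 and 4 of both groups, and their part in these values was not tested.

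Parp14, a mono-ADP-ribosyltransferase of the interferon response, was the list member with the smallest p. It had 9.19, 8.64, 8.75 and 9.02 FPKM after GENUS and 11.4, 14.5, 11.1 and 12.8 FPKM without it (log2 change -0.43, SE 0.12, adjusted p = 0.530). The groups did not overlap. Bst2, which tethers budding virus to the cell, averaged 555.5 ± 45.7 against 475 ± 32.7 FPKM.

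The estimates for antigen presentation genes also turned with the replicates used. The class I list had a median of 0.01, and of 0.21 and -0.14 in replicates 1 and 2 and in replicates 3 and 4. The class II list had a median of 0.02, and of 0.21 and -0.32. By library the class II list did not fall into a low and a high pair. Its median deviation was -0.09, 0.09, -0.03 and 0.20 in untreated replicates 1 to 4. In GENUS replicates 1 to 4 it was 0.05, 0.01, -0.18 and 0.01. B2m, the light chain of class I molecules, averaged 15704 ± 1975 against 16209.6 ± 1763 FPKM, where CK microglia had 3560.0 ± 465 FPKM. Nlrc5, the transactivator of class I genes, had 4.66, 3.36, 3.89 and 3.07 FPKM after GENUS and 4.03, 5.82, 7.28 and 8.66 FPKM without it (log2 change -0.62, SE 0.21, adjusted p = 0.576). The groups overlap in 1 library each. Cd74, the invariant chain of class II, ranged from 836 to 4270 FPKM in GENUS libraries and from 882 to 2121 FPKM in untreated ones, and GENUS replicate 1 was the highest. Near-identical H2 genes could share reads, so the class I and class II heavy chain values are uncertain.

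**Figure D5:**
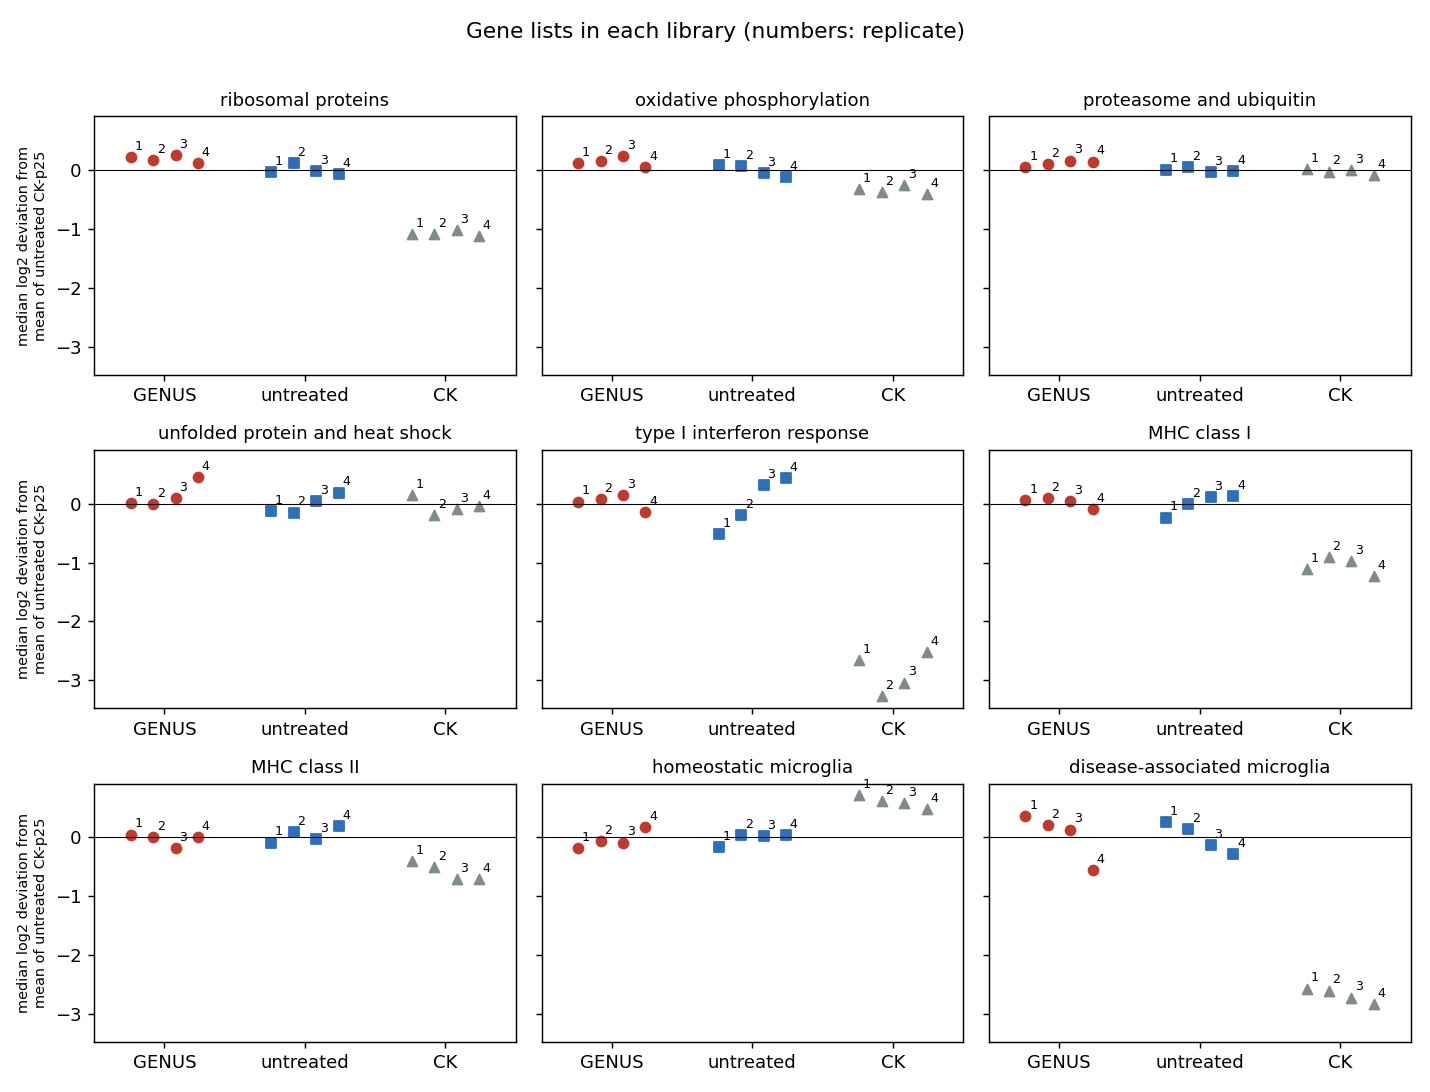
Median log2 deviation of the members of 9 gene lists from the mean of the untreated CK-p25 libraries (y axis) in each GENUS (red circles), untreated CK-p25 (blue squares) and CK (grey triangles) library, numbered by replicate. For the type I interferon response the untreated libraries run from -0.51 to 0.43 and the GENUS libraries from -0.14 to 0.14, and the unfolded protein and heat shock list reaches 0.45 in GENUS replicate 4.

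Immediate early genes, which respond within minutes to stimulation and to cell handling, had 27 of 30 estimates above 0, where 49.3% of all genes did. Only 1 had an unadjusted p under 0.05 in that direction (3.33%, where 3.59% of all genes did). Jund, an AP-1 subunit, had 127, 129.8, 125 and 130.3 FPKM after GENUS and 86.2, 107, 107 and 105 FPKM without it (log2 change 0.34, SE 0.13, adjusted p = 0.630). All GENUS values exceeded all untreated ones, and CK microglia averaged 120.4 ± 25.4 FPKM. Fos was at 1468 ± 173 against 1387 ± 169 FPKM. The list's median was 0.33 in replicates 1 and 2 and -0.02 in replicates 3 and 4, and it ranged from 0.01 to 0.26 when 1 library was left out.

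The unfolded protein and heat shock list rested on 1 library. Its median of 0.17 became -0.01 without GENUS replicate 4, where Hspa1a and neutrophil markers were high. Hspa5, the chaperone BiP of the endoplasmic reticulum, had 752, 711, 722 and 1157 FPKM after GENUS and 571, 539.8, 795 and 802 FPKM without it, so that the groups overlap. Dnajb1, an Hsp40 co-chaperone, had 219 FPKM in GENUS replicate 4 and 51.3 to 73.5 FPKM in the other GENUS libraries, against 47.5 to 76.8 FPKM in untreated ones.

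Cytokine and chemokine genes lay near 0, with a median of -0.01 over 31 and of 0.03 over 20. Il1b averaged 475 ± 70.5 against 444 ± 186 FPKM and Tnf 249 ± 51.6 against 232 ± 87.2 FPKM, with overlapping groups. Ccr2, a receptor of infiltrating monocytes, had 1.23, 1.65, 5.17 and 9.18 FPKM after GENUS and 7.88, 3.16, 12.95 and 12.1 FPKM without it (log2 change -1.05, SE 0.47, adjusted p = 0.676). Monocyte and neutrophil markers as a list had 9 of 10 tested members with an estimate below 0 and a median of -0.59, although their sum was highest in GENUS replicate 4. Of the 10, 2 had an unadjusted p under 0.05 in that direction, where 3.77% of all genes did. They were Ccr2 and Retnlg (log2 change -1.75, SE 0.81, adjusted p = 0.678), and both overlap between groups. Complement and Fc receptor genes had a median of 0.01 over 19. Among them C1qb, a chain of the complement starter C1q, averaged 13453 ± 1215 against 12308 ± 785 FPKM. Toll-like receptor genes had 14 of 22 estimates below 0, among them Traf6, the signalling adaptor, at 5.17 ± 1.03 against 7.34 ± 1.09 FPKM. Cd14, a co-receptor for lipopolysaccharide, had an estimate above 0, at 1012 ± 109 against 876 ± 100.4 FPKM, as did Ly86, the most abundant member, at 2567 ± 315 against 2456 ± 108 FPKM.

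Phagocytosis and scavenger receptor genes had 18 of 28 estimates below 0, and 3 of them had an unadjusted p under 0.05 (10.7%), where 3.77% of all genes did in that direction. Cd36, a scavenger receptor for oxidised lipid, had 3.18, 3.83, 1.88 and 4.76 FPKM after GENUS and 5.69, 5.73, 4.98 and 5.17 FPKM without it (log2 change -0.58, SE 0.20, adjusted p = 0.576). The groups do not overlap. Itgav, the alpha v integrin that binds bridging ligands on dying cells, averaged 14.9 ± 2.28 against 19.2 ± 2.96 FPKM, and Lrp1, a large endocytic receptor, 22.9 ± 3.02 against 27.6 ± 2.35 FPKM. Of the 28 genes, 11 were in the longest bin of transcripts. The list's median was -0.02 after centring within length bins.

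Lysosomal and cathepsin genes, Psap among them, had a median of 0.01 over 50, with 28 estimates above 0. Lgmn, the asparaginyl endopeptidase, had 974, 974, 994 and 999 FPKM after GENUS and 979, 1131, 1186 and 1217 FPKM without it (log2 change -0.19, SE 0.08, adjusted p = 0.668). GENUS libraries were unusually close to each other, and untreated replicate 1 fell among them. Ctss, the cathepsin that processes the invariant chain, averaged 11852 ± 706 against 11603 ± 1020.1 FPKM. Of 59 vesicle trafficking genes, 35 had an estimate above 0 (median 0.02), and Rab35, a GTPase of endocytic recycling, averaged 4.39 ± 0.459 against 2.99 ± 0.699 FPKM.

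Autophagy genes had a median of -0.06 over 36, with Bnip3, a receptor for mitophagy, above 0 and Pik3r4, the regulatory subunit of Vps34, below. Bnip3 had 49.95, 46.99, 51.0 and 52.6 FPKM after GENUS and 43.0, 33.4, 36.7 and 42.2 FPKM without it (log2 change 0.37, SE 0.10, adjusted p = 0.526). Its groups do not overlap, and CK microglia averaged 26.3 ± 2.20 FPKM. Pik3r4 averaged 8.57 ± 1.88 against 12.6 ± 1.05 FPKM. In lipid handling, with a median of 0.04 over 31, Plin2, which coats lipid droplets, averaged 72.5 ± 7.97 against 56.3 ± 10.3 FPKM and Sc5d, an enzyme of cholesterol synthesis, 12.6 ± 3.07 against 16.9 ± 1.76 FPKM. Both overlap between groups.

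Genes of cell shape and motility gave estimates on both sides. Tmsb4x, thymosin beta 4, which sequesters actin monomers, was among the most abundant transcripts, at 11469, 12412, 13788 and 13484 FPKM after GENUS and 11240.3, 10567, 10040.0 and 10877 FPKM without it (log2 change 0.26, SE 0.10, adjusted p = 0.591). The lowest GENUS library lay just above the highest untreated one. Pfn1, profilin 1, averaged 733 ± 95.3 against 611 ± 12 FPKM and Arpc3, of the Arp2/3 complex, 278 ± 17.2 against 237 ± 19.0 FPKM. The list of purine receptor and migration genes that holds them had a median of -0.01 over 31.

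Glycolysis and hypoxia genes had 24 of 31 estimates above 0 and a median of 0.12, with 1 member at an unadjusted p under 0.05 in that direction (3.23%, where 3.59% of all genes did). The median was 0.08 without GENUS replicate 1 and 0.19 without untreated replicate 1, and it was 0.21 in replicates 1 and 2 and 0.04 in replicates 3 and 4. Hk2, a hexokinase, averaged 31.2 ± 2.58 against 26.8 ± 1.54 FPKM. Cell cycle genes had a median of 0.09 over 31, which was -0.05 without untreated replicate 2, -0.03 without GENUS replicate 3 and -0.04 at a minimum of 5 FPKM. The median was -0.03 over 17 circadian clock genes and -0.01 over 25 growth factor and microglial signalling genes.

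The effect of GENUS was also set against that in neuronal nuclei of CK-p25 mice (4 GENUS and 5 untreated libraries, sorted by NeuN and made with another kit). A test of the difference between the 2 cell types, over 8880 genes measured in both, called 0 genes (0%), with 612 (6.89%) at an unadjusted p under 0.05 and a lowest adjusted p of 0.353. Psap averaged 96.1 ± 8.22 FPKM in GENUS and 96.7 ± 6.90 FPKM in untreated neuronal nuclei, and its difference of effects was 0.35 (SE 0.15, adjusted p = 0.671). For Mef2a the difference was -0.48 (SE 0.13, adjusted p = 0.397) and for Mrps12 0.94 (SE 0.27, adjusted p = 0.451). Wdfy3, an autophagy scaffold, had the smallest p (difference -0.63, SE 0.13, adjusted p = 0.353). Ribosomal protein genes had a median change of 0.10 in neuronal nuclei, with 41 of 70 above 0, and a median difference of 0.07.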

How the data were processed

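RNA was measured in 43 libraries, of which 12 microglia and 9 CK-p25 neuronal nuclei libraries were used. Expression was deposited by the authors as FPKM, 1 file per library. The submitters' processing notes list STAR, Cufflinks 2.0.0 and mm9, with no role or order. Neither an annotation nor a strand setting is stated there. FPKM are not counts, and absolute depth is unknown. From the steps between low values, 1 read was worth 0.946 to 1 times its value in GENUS replicate 1 in GENUS libraries, 1 to 1.12 times in untreated and 0.871 to 0.946 times in CK libraries, where a lower value means greater depth. Per CK-p25 microglia library, 10102 to 10333 genes were at 1 FPKM or more, and replicates correlated at 0.948 to 0.975 within GENUS, 0.950 to 0.975 within untreated and 0.949 to 0.974 across these groups.

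Genes with a mean of at least 1 FPKM over the 8 CK-p25 microglia libraries were transformed to log2(FPKM + 1), which understates the change of low genes. Exact 0 of Apoe and Ctsd was set to missing. A further look found 23 genes with a median of 5 FPKM or more and an exact 0 in at least 1 of the 8 libraries, so a 0 is given only as a listing. The 3 groups (GENUS, untreated, CK) entered 1 limma model (version 3.58.1, R 4.3.3) and so shared their residual variance, moderated by empirical Bayes with an intensity trend. Tests were two-sided, with Benjamini-Hochberg adjustment over all tested genes and a threshold of 0.05. The code was tested on simulated data. The labels do not call the replicates separate animals. The p-values therefore reflect the variation among these libraries, which may be technical.

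The genes named are the 10 with the smallest p in each direction (small RNAs, predicted genes and pseudogenes left out), Apoe and Ctsd, the 10 most abundant, and in each list the 2 members with the smallest p and the most abundant. Other genes are named as examples chosen after their values were seen. The libraries and gene lists were chosen with earlier results of these data known. Lists are described by counts and medians, with no set test. Transcript lengths came from GENCODE M21 and gene starts from RefSeq GRCm38.p6. Alternatives were other pseudocounts, minima, scalings, designs and handling of zeros, and each library left out. Some list members are not reported here by name.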

Additional observations from a re-analysis of the deposited data

Results flagged for a closer look

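A value that stood far from the other 3 libraries of its group, by Dixon's criterion at the 95% level, was found in 12 of 284 groups of 4 libraries tested, and chance flags about 1 in 20. Of these, 4 were in GENUS replicate 4. Fth1, the heavy chain of ferritin, was at 7067 FPKM there and at 8867 to 9137 FPKM in the other GENUS libraries, Cd14, a co-receptor for lipopolysaccharide, at 851 FPKM beside 1039 to 1080.1 FPKM, and Ly86, a partner of the receptor Cd180, at 2099 FPKM beside 2668 to 2782 FPKM. Hspa5 was high in the same library, at 1157 FPKM beside 711 to 752 FPKM. Monocyte and neutrophil markers and Hspa1a were high there too, and their part in these values was not tested.

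Ccl6, a chemokine, was high in GENUS replicate 1, at 958 FPKM beside 547 to 579 FPKM. In untreated replicate 1, Jund was low at 86.2 FPKM beside 105 to 107 FPKM, and Csf3r, the receptor for granulocyte colony-stimulating factor, was low at 173 FPKM beside 227 to 239.8 FPKM. Pdia4, a disulfide isomerase of the endoplasmic reticulum, was high in untreated replicate 3, at 136 FPKM beside 90.5 to 95.3 FPKM. In CK replicate 4, Lgmn was at 1339 FPKM beside 1437 to 1443 FPKM, Psma4 at 46.8 FPKM beside 60.7 to 63.5 FPKM and Nr1d2, a clock repressor, at 14.4 FPKM beside 20.2 to 21.04 FPKM. Rpl13 was at 113 FPKM in CK replicate 2 beside 108 to 109 FPKM.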

How the results depend on the processing

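The count of genes past the test stayed at 0 under a pseudocount of 0.1, no minimum or a minimum of 5 FPKM, 2 groups in the fit, median-ratio scaling, no variance trend, other handling of zeros, and without any 1 library. Alternatives chosen after seeing the data gave 4 called genes with replicates 1 and 2 only and 5 with replicates 3 and 4 only, in fits that borrow the spread of CK libraries. The 4 were small RNA genes, and the 5 were Cap1, Lrrc25, Zfp691, Snora75 and Snora70, named after their values were seen. Cap1 stood at 101 and 92.2 FPKM in GENUS replicates 1 and 2 and at 16.97 and 13.3 FPKM in replicates 3 and 4. In untreated replicates 1 to 4 it stood at 24.2, 92.4, 73.6 and 70.4 FPKM, so untreated replicate 1 was low too. Genes at an unadjusted p under 0.05 numbered 597 to 820 without 1 library, 452 after centring within length bins, 920 with a term for replicates 3 and 4 (0 called) and 1043 with no minimum, against 761. The difference between cell types had 1 gene called with a pseudocount of 0.1 (2410004N09Rik, listed at 0 in all GENUS neuron libraries) and 0 to 1 without 1 library (Atp6v0e2, without GENUS replicate 4). The cause was not tested. A fit of 2 groups does not apply to that difference.

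With the replicate number as a block, 0 genes passed and 867 had an unadjusted p under 0.05. Same-numbered libraries correlated at 0.30, 0.21, 0.08 and 0.31 in their deviations from group means, and 5 of 8 correlated best with their own number, so the numbers were not taken as pairs. List medians moved by more than the spread between replicates in 17 of 504 values, and other named genes in 32 of 1379. Some of these settings, such as 2 groups in the fit or no variance trend, cannot move an estimate. The counts therefore overstate how stable the values are. Apoe was -3.52 with its zeros kept.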
